A study of Mus musculus with 20 samples.

Results

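The genes described here are 36 lysosomal hydrolases and lysosome membrane proteins, measured among 10018 genes tested in mouse macrophages given cholesterol crystals, cyclodextrin or both. They were chosen by name from a list of cathepsins, glycosidases, sulfatases, sphingolipid enzymes and membrane proteins, with the proton pump left out, by a rule that uses no measured value, although the list was drawn up with earlier results of these data known. All probes whose annotated symbol was a member were taken, 77 of 45281 on the array. Of these, 67 were detected on at least 5 arrays, and each of the 36 genes had a probe detected on all 20 arrays, so no member was lost to the filter on dim probes.

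The cells were bone marrow-derived macrophages of C57BL/6 mice, grown from marrow for 6 days in 10% fetal calf serum with 40 ng/ml of the macrophage growth factor M-CSF. There were 4 groups of 5 arrays. Untreated cells (con) came from mice labelled 10 to 15 months old, while every treated group was labelled 2 to 5 months. Crystal-treated cells (cc) had received cholesterol crystals for 3 h, at a dose of 200 ug for 1 mio. cells. Cyclodextrin-treated cells (CD) had received 10 mM hydroxypropyl-beta-cyclodextrin, a sugar ring that binds cholesterol, for 6 h, and the fourth group (CD-cc) had received the crystals and then the cyclodextrin. The sample labels name no genotype, while the series' text mentions LXR-deficient and wild type mice. Against untreated cells, treatment and the age label cannot be told apart, whereas both cyclodextrin groups share one age label. The sources used here do not give the hours that untreated and crystal-only cells stood, nor whether replicates came from separate animals or cultures, so p-values measure the spread between these arrays, which may be technical.

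Lysosomes are the acidic compartments in which macrophages break down what they engulf. Hydrolases are made in the endoplasmic reticulum, tagged in the Golgi and delivered to the lysosome, where cathepsins cut proteins, glycosidases and sulfatases take apart sugar chains, and sphingolipid enzymes degrade membrane lipids. Many of these genes are known to carry in their promoters the palindrome CACGTG, often within a longer palindrome called the CLEAR motif, to which the factors TFEB and TFE3 bind.

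Promoter sequence was taken from RefSeq (GRCm38.p6) for 32 of the 36 members, and no entry was matched for Asah1, Ctsb, Ctsh and Galns. In the window from 250 bases before to 50 bases after the annotated start, 12 of the 32 held CACGTG (37.5%), against 8.09% of all 27025 genes in the table. The longer palindrome TCACGTGA, which contains it, occurred in 5 (Cln3, Ctsa, Ctsd, Gla and Mcoln1, 15.6% against 1.12%). Both motifs read the same on the 2 strands. Of the 7 members that rose with crystals, as given below, 4 held CACGTG (Gaa, Gla, Mcoln1 and Naglu), as did 8 of the 24 matched members that were not called, and the matched member that fell, Ctsc, held none. These calls are those of each gene's brightest probe. Ctsa, which held the motif, and Gpnmb, which did not, were not called on it, though 2 dimmer probes of each were called higher. These matches describe letters and are no measure of binding.

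The 250 bases before the start are shown for the 4 rising members that held the motif, and for Lamp1. Lamp1 held it 4 times and was not called in any comparison of the main model, though it was under some alternative processing. Capitals mark CACGTG and, where present, the 8-base palindrome TCACGTGA around it. Gla lies at chrX:134601006-134601255 on the minus strand, Mcoln1 at chr8:3500269-3500518, Naglu at chr11:101069844-101070093, Gaa at chr11:119267713-119267962 and Lamp1 at chr8:13158911-13159160, the latter 4 on the plus strand. With the start at 0, the first base of CACGTG lay at -227 and -194 in Gla, at -71 and -45 in Mcoln1, at -73 in Naglu, at -140 in Gaa, and at -61, -45, -28 and -15 in Lamp1.
Gla: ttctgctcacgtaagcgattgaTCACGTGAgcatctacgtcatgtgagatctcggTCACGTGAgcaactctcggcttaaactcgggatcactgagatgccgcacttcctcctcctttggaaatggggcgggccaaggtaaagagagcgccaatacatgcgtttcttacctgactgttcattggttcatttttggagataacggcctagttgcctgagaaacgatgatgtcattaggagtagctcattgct
Mcoln1: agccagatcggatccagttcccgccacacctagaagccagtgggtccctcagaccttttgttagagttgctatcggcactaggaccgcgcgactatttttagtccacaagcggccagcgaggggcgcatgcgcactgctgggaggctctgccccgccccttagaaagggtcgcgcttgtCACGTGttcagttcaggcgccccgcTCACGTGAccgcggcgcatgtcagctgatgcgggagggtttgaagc
Naglu: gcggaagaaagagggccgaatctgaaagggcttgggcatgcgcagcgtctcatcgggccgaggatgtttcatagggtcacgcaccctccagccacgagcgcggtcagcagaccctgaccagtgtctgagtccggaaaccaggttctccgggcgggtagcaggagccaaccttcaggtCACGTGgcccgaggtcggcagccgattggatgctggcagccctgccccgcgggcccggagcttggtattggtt
Gaa: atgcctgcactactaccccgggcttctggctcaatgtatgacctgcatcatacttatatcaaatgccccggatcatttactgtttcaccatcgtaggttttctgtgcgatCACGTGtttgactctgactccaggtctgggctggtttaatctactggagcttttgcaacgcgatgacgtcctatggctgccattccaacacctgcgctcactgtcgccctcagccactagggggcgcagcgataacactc
Lamp1: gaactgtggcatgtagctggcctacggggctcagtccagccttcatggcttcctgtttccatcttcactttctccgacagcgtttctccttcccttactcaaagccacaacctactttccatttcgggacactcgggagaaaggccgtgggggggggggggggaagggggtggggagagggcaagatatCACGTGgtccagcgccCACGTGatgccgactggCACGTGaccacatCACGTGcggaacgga

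Levels are given as log2 of the background-corrected and quantile-normalised bead signal of the gene's brightest probe, so levels are comparable between arrays for 1 gene but not between genes. A change is a difference of group means on this scale, its error after ± is the standard error (SE) of the limma model with n = 5 arrays a group, and a gene was called where its p, adjusted by Benjamini-Hochberg across the 10018 genes, was below 0.05. Median bead signal was 86.6 to 128 per array, and 15342 to 17892 probes per array were detected. The arrays lay on 6 chips. Chips 1 and 5 held 3 arrays of each group and stood apart from the other 4 chips, which held 2 of each group. Xist lay at 10.997 to 11.512 on chips 1 and 5 and at 4.26 to 4.45 elsewhere, and Eif2s3y at 4.19 to 4.54 against 10.17 to 10.9. Both genes are sex-linked, and they split the arrays exactly as the chip batch does. In differences between the batches, the chips and the sex of the donor mice therefore cannot be told apart. The authors' own value table shows 5 sets of 4 arrays, 1 of each group, and a fit with the set as a block is given where it changed a call. All 9 macrophage markers with a probe were detected on every array. The neutrophil, dendritic, B cell, T and NK, mast and erythroid lists had at most 2 tested genes each, with none called without a block in the comparisons of groups, and their summed signals stayed at or below 155.6.

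Crystals against untreated cells asked what engulfed cholesterol crystals do to these genes. Of the 36 members, 7 rose and 1 fell. The risers were the cathepsin Ctsz, the glycosidases Gla, Naglu, Gaa and Neu1, the ion channel Mcoln1 and the saposin precursor Psap, by 0.23 to 1.17 on the log2 scale, and the faller was the cathepsin Ctsc. The call rate over all genes was 17.5% in either direction, 8.49% higher and 8.97% lower, so 8 of 36 lay near the background for calls of either direction, with relatively more of them higher. The members' median change was 0.05, against -0.02 over all genes. In 6 members every crystal-treated array lay above every untreated one, and in 1, Lamp2, below. Over all genes these shares were 7.32% and 7.63%.

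**Figure D1:**
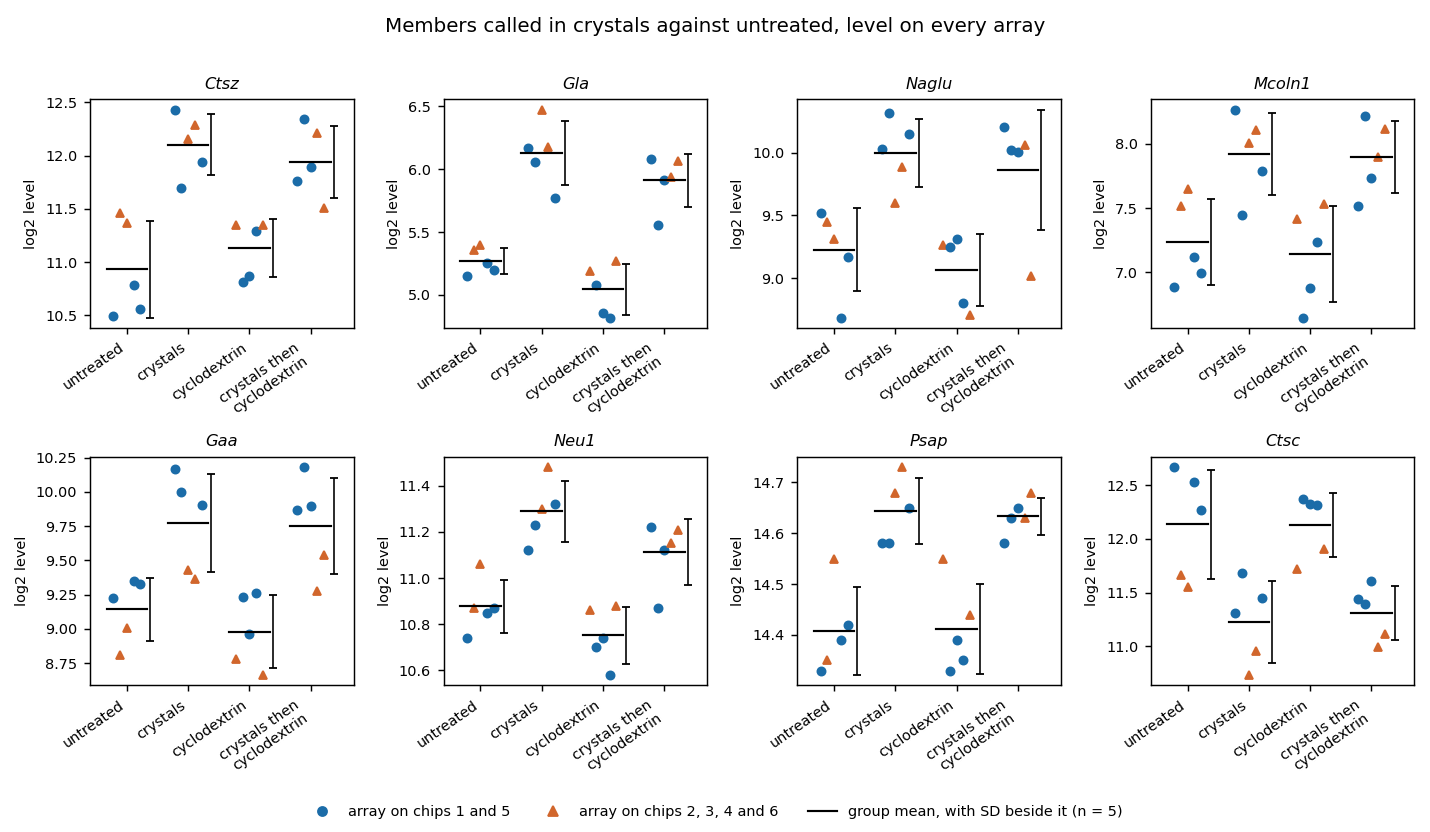
Level (log2, vertical axis) of the 8 members called in crystals against untreated on each of 20 arrays, by group. Circles are arrays on chips 1 and 5, triangles those on the other chips, lines are group means and bars the SD (n = 5). In Ctsz, Gla, Naglu, Gaa, Neu1 and Psap every crystal-treated array lies above every untreated one, as in 7.32% of all genes.

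Among the 11 proteases, 1 rose, 1 fell and 9 were not called. Ctsz, which encodes the carboxypeptidase cathepsin Z, lay at 10.49, 10.56, 10.78, 11.37 and 11.46 on the untreated arrays. With crystals it lay at 11.70, 11.94, 12.16, 12.29 and 12.43. The groups did not overlap, and the rise was 1.17 ± 0.21, or 2.25-fold (limma, adjusted p = 0.000689). By chip batch it was 1.41 (chips 1 and 5) and 0.81 (the rest), and its second probe rose by 1.09.

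Ctsc encodes cathepsin C, a dipeptidyl peptidase known for activating the granule serine proteases of immune cells. It lay at 11.55, 11.66, 12.27, 12.53 and 12.67 untreated and at 10.73, 10.95, 11.31, 11.45 and 11.68 with crystals. The highest crystal-treated array overlapped the 2 lowest untreated ones, and in each group the 2 lowest arrays were those of chips 2, 3, 4 and 6. Ctsc fell by 0.91 ± 0.22 on the log2 scale, which is 1.88-fold (limma, adjusted p = 0.00753), and changed by -1.01 and -0.76 within the chip batches. All 3 of its probes were called lower, by -0.91 to -1.09.

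The macrophage marker list moved in the same comparison. Its summed signal was 49775 to 63299.7 untreated, 43831 to 51983 with crystals, 56517 to 60714 with cyclodextrin and 45245 to 52666 with both. Of its 9 tested genes, the coreceptor Cd14 and the integrin Itgam were called lower, at -1.14 ± 0.29 and -0.88 ± 0.26, and none higher. Whether these shifts play a part in the members' changes was not tested, and in bulk samples fewer cells of a type and less RNA per cell cannot be told apart.

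The glycosidases, which trim sugar chains, had 4 risers of 9 and no faller. Gla encodes alpha-galactosidase A, which takes terminal galactose off glycosphingolipids. It lay at 5.15, 5.20, 5.25, 5.35 and 5.40 untreated and at 5.77, 6.06, 6.17, 6.17 and 6.47 with crystals. The groups were apart, and the rise of 0.86 ± 0.13 was 1.81-fold (limma, adjusted p = 0.000188). Its probe is dim, and the offset of the background correction shrinks fold changes of dim probes. Within the chip batches it rose by 0.80 and 0.95.

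Naglu encodes an enzyme of heparan sulfate breakdown, alpha-N-acetylglucosaminidase. It lay at 8.69, 9.17, 9.31, 9.45 and 9.52 untreated and at 9.60, 9.89, 10.03, 10.15 and 10.32 with crystals, with no overlap. The rise was 0.77 ± 0.21, or 1.71-fold (limma, adjusted p = 0.0157), with 1.04 and 0.36 within the chip batches. Without the array con 4, the lowest of its group, the adjusted p was 0.0549.

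Gaa encodes acid alpha-glucosidase, which frees glucose from glycogen. Untreated arrays held 8.81, 9.0, 9.22, 9.32 and 9.35, and crystal-treated arrays 9.37, 9.43, 9.91, 10.00 and 10.17. These groups touched without overlapping, and Gaa rose by 0.63 ± 0.19, or 1.55-fold (limma, adjusted p = 0.0229), with 0.73 and 0.49 within the chip batches. The call was lost without cc 1, cc 2, cc 5 or con 2, at adjusted p values of 0.0569 to 0.0752.

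Neu1, the lysosomal sialidase, lay at 10.74, 10.85, 10.87, 10.87 and 11.06 untreated and at 11.12, 11.23, 11.30, 11.32 and 11.48 with crystals. Every crystal-treated array was higher. The rise of 0.41 ± 0.10 was 1.33-fold (limma, adjusted p = 0.00636) and was alike in both chip batches, at 0.40 and 0.42. The 5 glycosidases not called were Glb1, Gusb, Hexa, Man2b1 and Manba, enzymes for galactosides, glucuronides, hexosaminides and mannosides, with changes of -0.25 (Man2b1) to 0.19 (Hexa).

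No sulfatase was called without a block. Galns, which removes sulfate from keratan and chondroitin sulfate, lay at 6.80, 7.00, 7.07, 7.19 and 7.87 untreated and at 7.50, 7.58, 7.66, 7.69 and 8.16 with crystals. The highest untreated array overlapped the crystal-treated ones. The change was 0.53 ± 0.19 (limma, adjusted p = 0.065), and adjusted p was 0.00105 with the set as a block. Without con 2 the unblocked adjusted p was 0.0088. Arsa and Arsb, the arylsulfatases A and B, changed by -0.05 and -0.23.

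Of the 4 sphingolipid and lipid-modification genes, Psap alone was called. It encodes the precursor of the saposins, small proteins that lift sphingolipids out of the membrane for their hydrolases. Psap lay at 14.33, 14.35, 14.39, 14.42 and 14.55 untreated and at 14.58, 14.58, 14.65, 14.68 and 14.73 with crystals. Although the groups were apart, the rise was 0.23 ± 0.08, or 1.17-fold (limma, adjusted p = 0.0445), and it lost its call without any 1 of 12 arrays. The probe's bead signal reached 58.3 to 93.4% of the array's brightest probe, and the gene's second probe rose by 0.43 (adjusted p = 0.0115 among all probes). Asah1 (acid ceramidase), Ppt1 (a depalmitoylating thioesterase) and Smpd1 (acid sphingomyelinase) changed by -0.12, -0.25 and -0.06 and were not called. Smpd1 lay at 9.14, 9.20, 9.23, 9.28 and 9.33 untreated and at 8.96, 9.04, 9.08, 9.36 and 9.43 with crystals, with overlap.

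Among the 8 membrane proteins, 1 rose. Mcoln1 encodes TRPML1, the channel that lets calcium out of lysosomes. It lay at 6.88, 6.99, 7.12, 7.52 and 7.65 untreated and at 7.45, 7.79, 8.0, 8.11 and 8.27 with crystals. Only the lowest crystal-treated array fell among the untreated ones. The rise was 0.69 ± 0.20, or 1.61-fold (limma, adjusted p = 0.0201), with 0.84 and 0.47 within the chip batches. It lost its call without con 1, con 5 or cc 1, at adjusted p values of 0.057 to 0.0638.

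Cd63, a tetraspanin of late endosomes, lay at 13.13, 13.15, 13.21, 13.37 and 13.51 untreated and at 13.42, 13.45, 13.48, 13.59 and 13.64 with crystals. Its change of 0.24 ± 0.10 was not called without a block and was called with the set block (adjusted p = 0.0982 and 0.0421). It was also called without background correction, in the authors' deposited table and without con 3. Scarb2, an integral lysosome membrane protein also called LIMP-2, lay at 8.84, 8.87, 9.0, 9.35 and 9.53 untreated and at 8.55, 8.60, 8.69, 8.99 and 9.0 with crystals. The change of -0.35 ± 0.17 was not called without a block and was called with it (adjusted p = 0.178 and 0.0195), and also in the authors' deposited table and with the chip batch as a block. The structural membrane glycoproteins Lamp1 and Lamp2, with Cln3 and Laptm5, changed by -0.13 (Lamp2) to 0.12 (Lamp1). Lamp1 lay at 13.15, 13.17, 13.32, 13.47 and 13.63 untreated and at 13.19, 13.40, 13.51, 13.55 and 13.67 with crystals, with overlap. In the authors' deposited table, with and without the set block, Lamp1 was not called here. There it was called higher for crystals then cyclodextrin, against cyclodextrin and against untreated cells. Progranulin, Grn, a secreted and lysosomal protein, changed by -0.02 ± 0.10, with 13.35, 13.54, 13.67, 13.70 and 13.75 untreated and 13.47, 13.51, 13.53, 13.61 and 13.81 with crystals, which overlap.

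With the set as a block, 12 members were called, 10 higher and 2 lower, against 27.7% of all genes (12.5% higher and 15.2% lower). The 4 added were Ctsk, Galns, Cd63 and Scarb2. Ctsk encodes cathepsin K, the collagen-cutting protease best known from osteoclasts. Untreated arrays held 6.47, 6.77, 7.61, 9.20 and 9.40, and crystal-treated arrays 8.34, 8.52, 8.95, 9.87 and 10.06. Each group split by chip batch, with every array of chips 2, 3, 4 and 6 above those of chips 1 and 5. The change was 1.26 ± 0.60 without a block (adjusted p = 0.169) and was positive in 5 of 5 sets (adjusted p = 0.000119 with the block). Within the chip batches the change was 1.65 and 0.67. Of 8 osteoclast markers, 3 were tested and Dcstamp was called lower, while Calcr and Atp6v0d2 were detected on no array. Their summed signal was 577 to 857 untreated, 484 to 711 with crystals, 504 to 693 with cyclodextrin and 444 to 702 with both.

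The glycoprotein Gpnmb, known to rise in macrophages with loaded lysosomes, depended on the probe. Its brightest probe lay at 14.05, 14.13, 14.20, 14.30 and 14.32 untreated and at 14.20, 14.23, 14.30, 14.35 and 14.36 with crystals. That difference was 0.09 ± 0.09 (limma, adjusted p = 0.576). The signal of this probe was 50.2 to 79.1% of the array's brightest. The probe ILMN_2918882 lay at 9.78, 10.58, 10.64, 11.31 and 11.63 untreated and at 11.57, 11.67, 11.92, 12.04 and 12.32 with crystals, a rise of 1.12 ± 0.27 (limma among all probes, adjusted p = 0.00846). ILMN_1236420 rose by 1.06 ± 0.30 (adjusted p = 0.0203), with 9.16 to 10.70 untreated and 10.42 to 11.27 with crystals. For ILMN_2614655 the change was 0.88 ± 0.39 (adjusted p = 0.146, and 0.0156 with the set block). So 2 of the 3 dimmer probes were called and the brightest was not, and the gene's call rests on which probe is read. ILMN_1236420 lay at 8.83 to 10.19 with cyclodextrin and at 10.51 to 11.24 with crystals then cyclodextrin, without overlap. These groups overlapped on the other probes, and the brightest was not called there either.

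**Figure D2:**
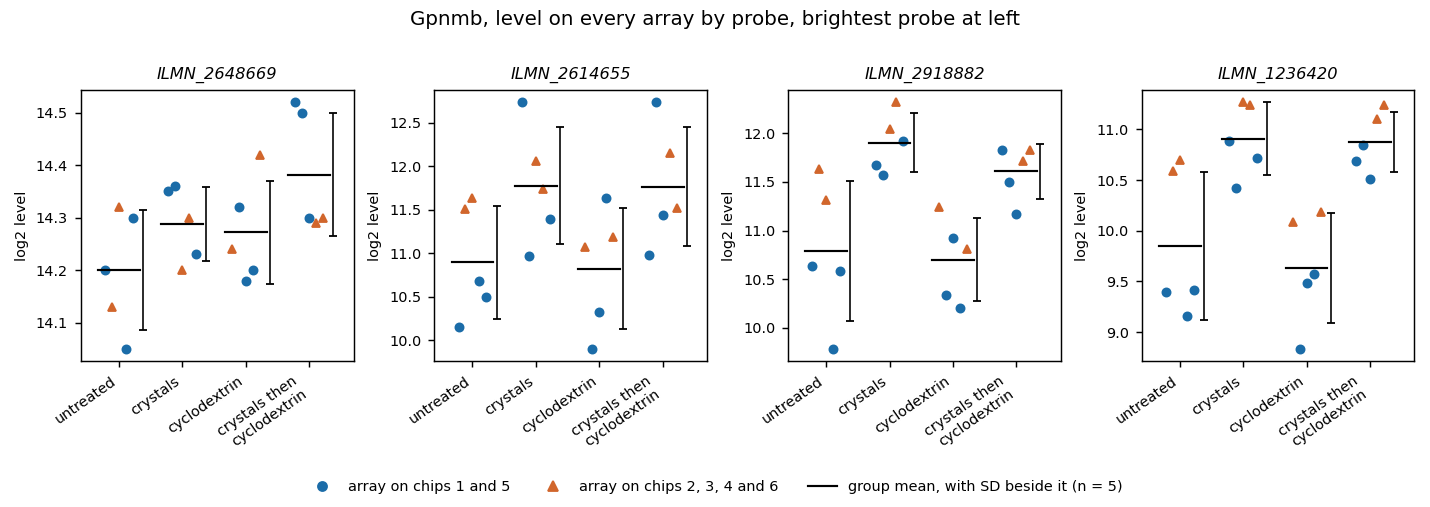
Level (log2, vertical axis) of the 4 Gpnmb probes on each array by group, symbols as in the plot of called members. The brightest probe spans 14.05 to 14.52 over all groups, while on ILMN_2918882 the untreated arrays span 9.78 to 11.63 and the crystal-treated ones 11.57 to 12.32.

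Ctsa, encoding the protective carboxypeptidase cathepsin A, also differed between probes. Its brightest probe changed by 0.08 ± 0.47, whereas ILMN_3120827 rose by 0.79 ± 0.14 (limma among all probes, adjusted p = 0.000864) and ILMN_2681631 by 0.55 ± 0.14 (adjusted p = 0.0133). On ILMN_3120827 the untreated arrays lay at 6.29 to 6.95 and the crystal-treated ones at 7.12 to 7.78, without overlap. Over all 67 detected member probes, 13 were called higher and 3 lower, covering 11 genes, against 14.4% of all probes called. Of the remaining proteases, Ctsb and Ctsd, a cysteine and an aspartic cathepsin, changed by 0.10 ± 0.09 and 0.19 ± 0.21. The Ctsd probe is dim, with a bead signal of 230 to 352 untreated, and the offset shrinks its changes. The Ctsb probe is bright, at 13662 to 22387 untreated. Ctsd lay at 7.36, 7.54, 7.77, 7.82 and 7.84 untreated and at 7.58, 7.69, 7.82, 8.07 and 8.14 with crystals. Ctsb lay at 14.14, 14.14, 14.15, 14.30 and 14.38 and at 14.17, 14.25, 14.36, 14.38 and 14.46. The groups overlapped in both genes. Ctsh, Ctsl, Ctss, Lgmn and Tpp1 were not called either, with changes of -0.20 (Ctsh) to 0.33 (Tpp1, the tripeptidyl peptidase, adjusted p = 0.0953).

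**Figure D3:**
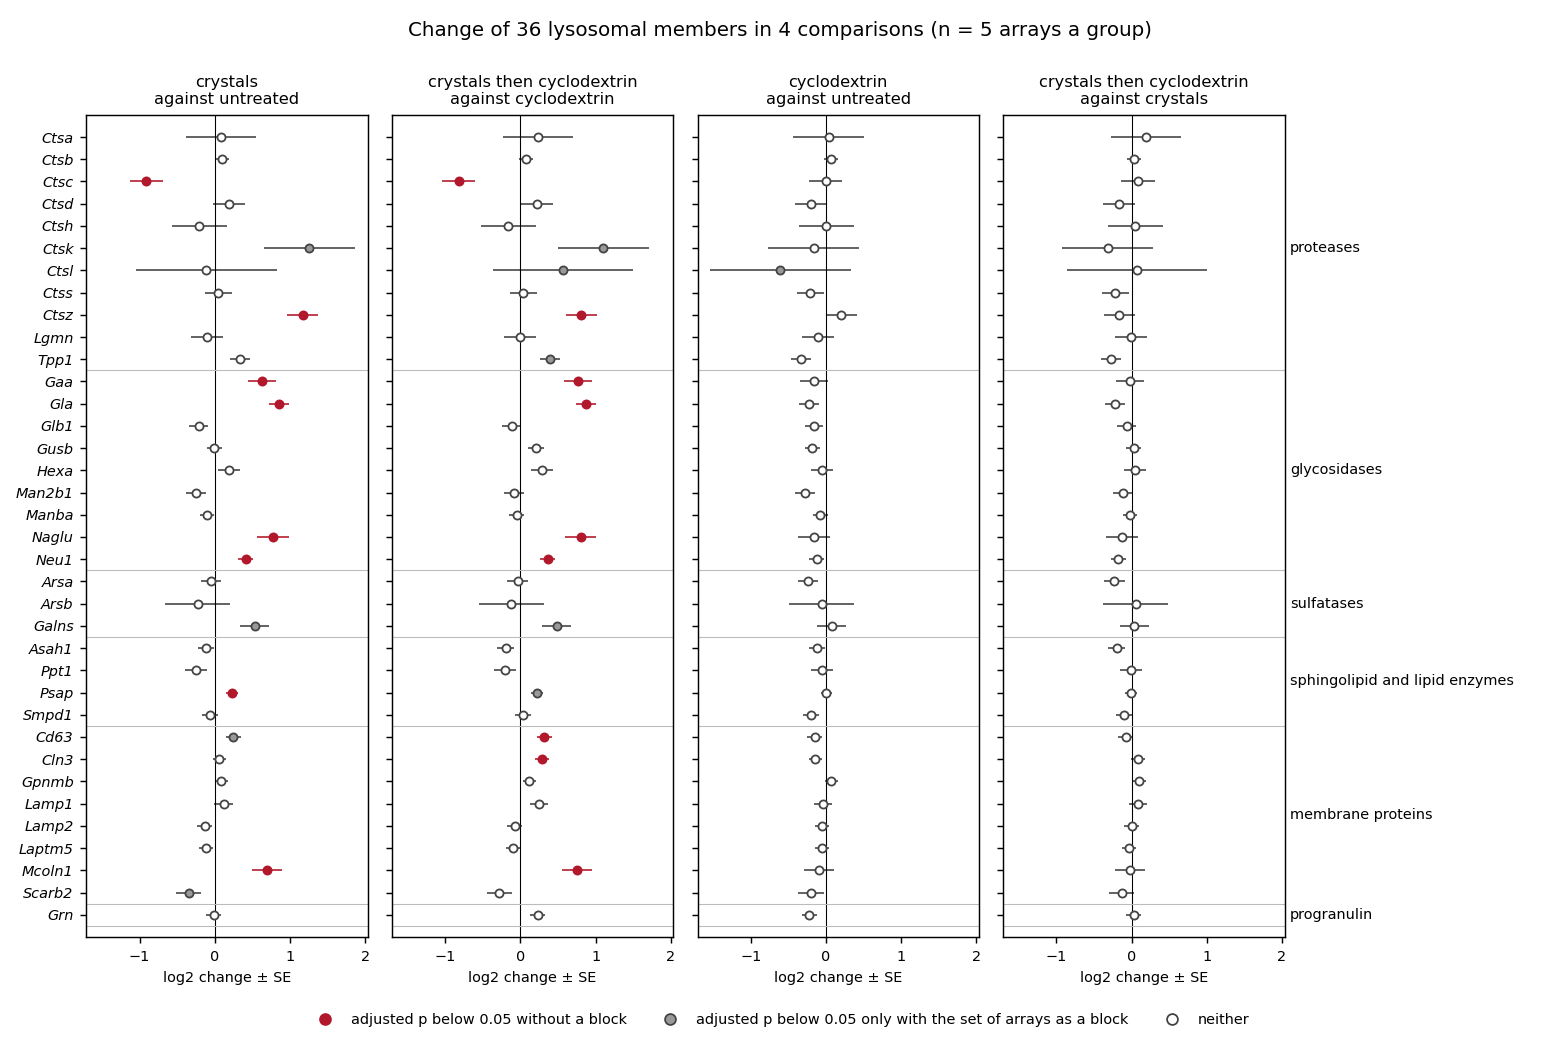
Change (log2, horizontal axis, with SE) of all 36 members, grouped by role, in 4 comparisons. Filled red points were called without a block and grey points only with the set as a block; 8 points are red for crystals against untreated and 9 for both against cyclodextrin, and none for cyclodextrin against untreated or both against crystals.

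Cyclodextrin against untreated cells asked what the sugar ring does without crystals. No member was called, against 1.13% of all genes (0.848% higher and 0.279% lower), and 3 members had an unadjusted p below 0.05 in limma. These were Tpp1 at -0.34 ± 0.13, Man2b1 at -0.28 ± 0.13 and Grn at -0.22 ± 0.10, with adjusted p values of 0.321, 0.455 and 0.406. Changes were below 0 in 29 of 36 members, and the median was -0.12 against -0.02 over all genes. In 1 member, Smpd1, every cyclodextrin array lay below every untreated one, the nearest at 9.13 and 9.14. No member lay apart in the other direction. Over all genes these shares were 1.22% and 1.91%. For 33 members the 95% interval of the change lay within 1 log2 unit either way, and it was wider for Ctsa, Ctsk and Ctsl.

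Ctsl encodes cathepsin L, an endopeptidase of broad specificity, and was the only member called here with the set block, with which 4.12% of all genes were called (2.57% higher and 1.56% lower). It lay at 7.57, 7.90, 8.44, 10.53 and 10.91 untreated and at 7.26, 7.45, 7.47, 10.01 and 10.12 with cyclodextrin. The arrays of chips 1 and 5 were the 3 lower ones of each group. The change was -0.61 ± 0.93 without a block (adjusted p = 0.927), was negative in 5 of 5 sets and had an adjusted p of 0.0146 with the block. Within the chip batches it was -0.57 and -0.65.

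Crystals then cyclodextrin against crystals asked whether the later cyclodextrin altered crystal-loaded cells. No member was called and none had an unadjusted p below 0.05. Over all genes 0% were called by limma, with 815 at an unadjusted p below 0.05, and with the set block 1.8% of genes (1.29% higher and 0.509% lower) and no member. Changes ran from -0.32 (Ctsk) to 0.19 (Ctsa), and the median was -0.02, as over all genes. The 95% intervals of 33 members lay within 1 log2 unit either way, again wider for Ctsa, Ctsk and Ctsl. Among the members raised by crystals, Ctsz changed by -0.16 ± 0.21, Gla by -0.22 ± 0.13, Neu1 by -0.18 ± 0.10 and Mcoln1 by -0.02 ± 0.20.

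Crystals then cyclodextrin against cyclodextrin measured the crystal effect a second time. Its group means came from 10 arrays that do not enter the first difference and that share an age label. The spread behind SEs and p-values was pooled over all 20 arrays in both comparisons. The chips were uneven here: CD-cc 1, 2 and 3 lay on chip 1 and CD 2, 3 and 4 on chip 5, and chip 6 alone held both groups, so on chips 1 and 5 the treatment and the chip cannot be told apart. Of the members, 8 rose and 1 fell, against a call rate of 9.2% over all genes (4.56% higher and 4.64% lower). Gla, Ctsz, Naglu, Gaa, Mcoln1 and Neu1 rose again and Ctsc fell again. With the chip as a fixed block 3 members were called, Gaa and Gla higher and Ctsc lower, and over all genes 127 higher and 96 lower in place of 457 and 465. In that fit Ctsz, Naglu, Mcoln1 and Neu1 changed by 0.63, 0.50, 0.69 and 0.42 and were not called (limma, adjusted p = 0.224, 0.267, 0.157 and 0.0915). The median change was 0.21, against -0.02 over all genes. In 7 members the groups were apart with the crystal-loaded arrays higher, and in 1 with them lower, against 4.01% and 3.47% of all genes.

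Gla lay at 4.82, 4.86, 5.08, 5.19 and 5.27 with cyclodextrin and at 5.56, 5.91, 5.94, 6.06 and 6.08 with both. The groups were apart, and the rise of 0.87 ± 0.13 was 1.82-fold (limma, adjusted p = 0.000261). Ctsz went from 10.81, 10.87, 11.29, 11.35 and 11.35 to 11.51, 11.76, 11.89, 12.21 and 12.34. It too was apart, at 0.81 ± 0.21 (limma, adjusted p = 0.0166), and lost its call without CD-cc 2 or CD 2.

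Gaa, at 8.66, 8.78, 8.96, 9.23 and 9.27 with cyclodextrin, stood at 9.28, 9.54, 9.87, 9.90 and 10.18 with both. Its rise of 0.77 ± 0.19 (limma, adjusted p = 0.0112) held without any 1 array. Naglu lay at 8.71, 8.80, 9.25, 9.26 and 9.31 and then at 9.02, 10.01, 10.02, 10.06 and 10.21. One array, CD-cc 5, overlapped the cyclodextrin arrays, and the rise was 0.80 ± 0.21 (limma, adjusted p = 0.02), lost without CD-cc 1, CD-cc 4 or CD 4.

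Mcoln1 lay at 6.65, 6.88, 7.24, 7.42 and 7.53 with cyclodextrin and at 7.52, 7.74, 7.90, 8.12 and 8.22 with both. The groups overlapped by 1 array, and the rise was 0.76 ± 0.20 (limma, adjusted p = 0.0189), lost without CD-cc 2, CD 2 or CD 3. Neu1 lay at 10.58, 10.70, 10.74, 10.86 and 10.88 and then at 10.87, 11.12, 11.15, 11.21 and 11.22. Its rise was 0.36 ± 0.10 (limma, adjusted p = 0.0235), lost without any 1 of CD-cc 1, 4 and 5 or CD 2, 3 and 4.

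Ctsc lay at 11.72, 11.91, 12.32, 12.33 and 12.37 with cyclodextrin and at 10.99, 11.11, 11.39, 11.44 and 11.61 with both. Here the groups were apart. It fell by 0.82 ± 0.22 on the log2 scale, or 1.77-fold (limma, adjusted p = 0.023), lost without CD-cc 4, CD-cc 5, CD 2, CD 3 or CD 4.

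In the macrophage list Cd14 was called lower here and Mertk, a receptor for engulfing dead cells, higher, by -1.08 and 1.63, and their part in the members' changes was not tested.

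Cd63 and Cln3 were called in this comparison and not, without a block, in the first one, and the difference between the comparisons was not called for either (interaction, limma unadjusted p = 0.613 for Cd63 and 0.0889 for Cln3, neither called after adjustment). Cd63 lay at 12.93, 13.03, 13.16, 13.21 and 13.28 with cyclodextrin and at 13.30, 13.41, 13.43, 13.47 and 13.58 with both, a rise of 0.32 ± 0.10 (adjusted p = 0.0493). Cln3, a lysosomal membrane protein whose loss causes juvenile Batten disease, lay at 10.72, 10.76, 10.85, 10.86 and 10.91 and at 11.01, 11.05, 11.14, 11.17 and 11.17. Its rise was 0.29 ± 0.09 (adjusted p = 0.0486). Both pairs of groups were apart, yet the calls were lost without any 1 of 17 arrays for Cd63 and 15 for Cln3.

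With the set block, 13 members rose and 1 fell, against 18.5% of all genes (8.46% higher and 10.1% lower). Psap lay at 14.33, 14.35, 14.39, 14.44 and 14.55 with cyclodextrin and at 14.58, 14.63, 14.63, 14.65 and 14.68 with both. The added members were Psap, Tpp1, Galns, Ctsk and Ctsl, with changes of 0.22, 0.39, 0.48, 1.10 and 0.56, each positive in 5 of 5 sets. For Ctsl the 5 arrays given both lay at 7.60, 7.65, 7.92, 10.94 and 11.02, against the cyclodextrin values above. Ctsk lay at 6.45, 6.68, 7.53, 8.86 and 9.10 with cyclodextrin and at 8.06, 8.19, 8.77, 9.51 and 9.61 with both. Tpp1 lay at 8.89, 9.16, 9.17, 9.36 and 9.41 and at 9.42, 9.46, 9.59, 9.73 and 9.75, groups that did not overlap (adjusted p = 0.0701 without and 0.0498 with the block).

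The crystal effect was thus measured in separate arrays without and with cyclodextrin, drawn from the same 5 sets. The 2 measurements are therefore not independent of the set, and their calls share 1 pooled spread per gene. The 7 members called in both are 87.5% of the 8 called in the first and 77.8% of the 9 called in the second, and all 7 went the same way. With the chip as a fixed block, 3 were called in both (Gaa, Gla and Ctsc). Over all genes, 763 were called in both, or 43.6% of the first and 82.8% of the second. All 763 also went the same way, so the shared direction is not particular to the members. The sign was the same in 32 of 36 members (88.9%), and in 78.2% of all genes. No member had a called interaction of crystals and cyclodextrin, against 0.0399% of all genes (0.00998% above 0 and 0.0299% below), and 31 of 36 intervals of that interaction lay within 1 log2 unit either way.

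Crystals then cyclodextrin against untreated cells shares its untreated arrays with the comparisons above. It called 7 members higher and 2 lower, against 20.2% of all genes (9.06% higher and 11.1% lower). The risers were Ctsz at 1.01 ± 0.21, Mcoln1 at 0.67 ± 0.20, Gla at 0.64 ± 0.13, Naglu at 0.64 ± 0.21, Gaa at 0.61 ± 0.19, Galns at 0.56 ± 0.19 and Psap at 0.23 ± 0.08. Ctsc changed by -0.83 ± 0.22 and Asah1 by -0.32 ± 0.11. Of 40 alternatives, the call was lost in 24 for Psap, 22 for Galns, 11 for Naglu, 8 for Mcoln1 and 7 for Gaa, and in 25 for Asah1. With the chip as a fixed block, Ctsz, Gaa, Gla, Naglu and Ctsc were called.

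Asah1, acid ceramidase, lay at 13.22, 13.27, 13.33, 13.38 and 13.41 untreated and at 12.89, 12.90, 13.00, 13.02 and 13.22 with both, meeting near 13.22. The fall had an adjusted p of 0.0499 (limma) and was lost without any 1 of 15 arrays. Galns lay at 7.51, 7.62, 7.65, 7.88 and 8.08 with both (adjusted p = 0.0451), and 1 untreated array lay among them. With the set block, 9 members were higher and 4 lower, against 31.8% of all genes (13.7% higher and 18.1% lower). Ctsk and Neu1 were added as higher, with changes of 0.94 ± 0.60 and 0.24 ± 0.10 (adjusted p = 0.303 and 0.0975 without the block, 0.00112 and 0.0381 with it). Fcgr1 of the macrophage list and Nfatc1 of the osteoclast list were called lower in this comparison, by -1.43 and -0.51, and their part was not tested. Scarb2, at 8.43, 8.52, 8.63, 8.76 and 8.83 with both, was then called lower, below every untreated array. Over all genes, 8.08% lay apart in this direction. The change of Scarb2 was -0.48 ± 0.17 (adjusted p = 0.0515 without and 0.00215 with the block). Man2b1, an alpha-mannosidase, also joined, at 12.71, 12.89, 13.04, 13.09 and 13.30 against 13.26, 13.27, 13.30, 13.45 and 13.56 untreated, or -0.37 ± 0.13 (adjusted p = 0.0558 and 0.0175).

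Some members differed more between the chip batches than between treatments. The batches also split by the sex-linked genes Xist and Eif2s3y, so chip and donor sex cannot be told apart here. Ctsl lay at 7.26 to 8.44 on chips 1 and 5 and at 10.01 to 11.03 on the other chips, a 7.74-fold difference of means. Arsb was 2.46-fold and Lgmn, the asparaginyl endopeptidase legumain, 1.48-fold higher on chips 2, 3, 4 and 6, whereas Ctsh, an aminopeptidase, was 2.17-fold lower there. In these 4 members the batches did not overlap, which is 11.1% of 36, against 2.41% of all genes. Ctsk was 3.38-fold higher on the same chips, with overlap between the batches.

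**Figure D4:**
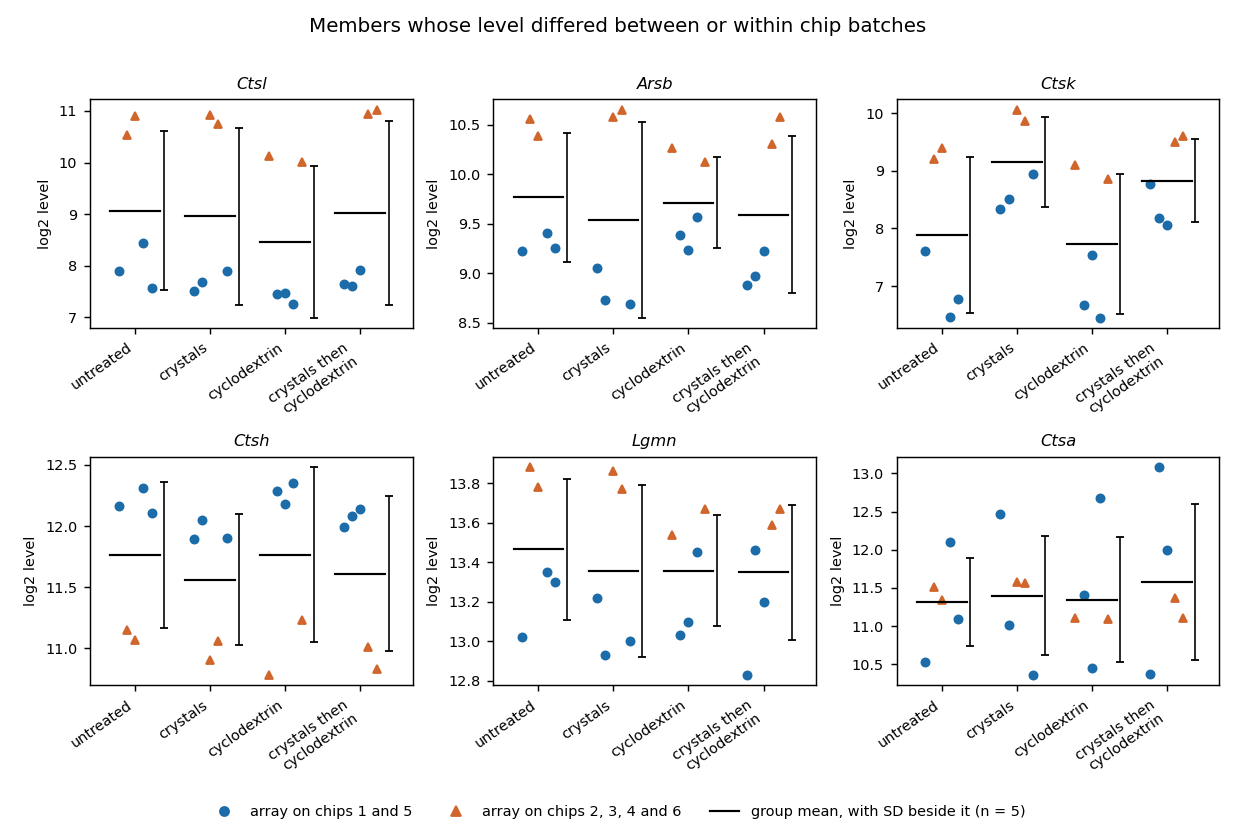
Level (log2, vertical axis) on each array, by group, of Ctsl, Arsb, Ctsk, Ctsh, Lgmn and Ctsa; symbols as in the plot of called members. In Ctsl, Arsb, Ctsh and Lgmn the triangles of chips 2, 3, 4 and 6 lie apart from the circles in every group, whereas in Ctsa the circles alone span 10.36 to 13.08.

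The stromal marker list moved with the chips too. Its summed signal was 492.8 to 760.9 on chips 1 and 5 and 1164 to 1882 on the others in untreated cells, 557.6 to 837.1 and 1345 to 2158 with crystals, 536.5 to 966.3 and 1207 to 1526 with cyclodextrin, and 456.4 to 734.8 and 1077 to 2055 with both. In each group 3 of its 6 genes were detected on all 5 arrays, and none was undetected throughout. Its part in the batch differences was not tested. No treatment effect of a member differed between the batches by a called interaction. Of all 10018 genes, 13 were called for crystals against untreated, 81 for cyclodextrin against untreated and 80 for both against crystals. There were 6 for both against cyclodextrin, 128 for both against untreated and 0 for the interaction of crystals and cyclodextrin. Member SEs ran from 0.16 (Psap) to 1.00 (Ctsa) for crystals against untreated. With 3 or 2 arrays a group in a batch, the lack of calls does not show equal effects.

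**Figure D5:**
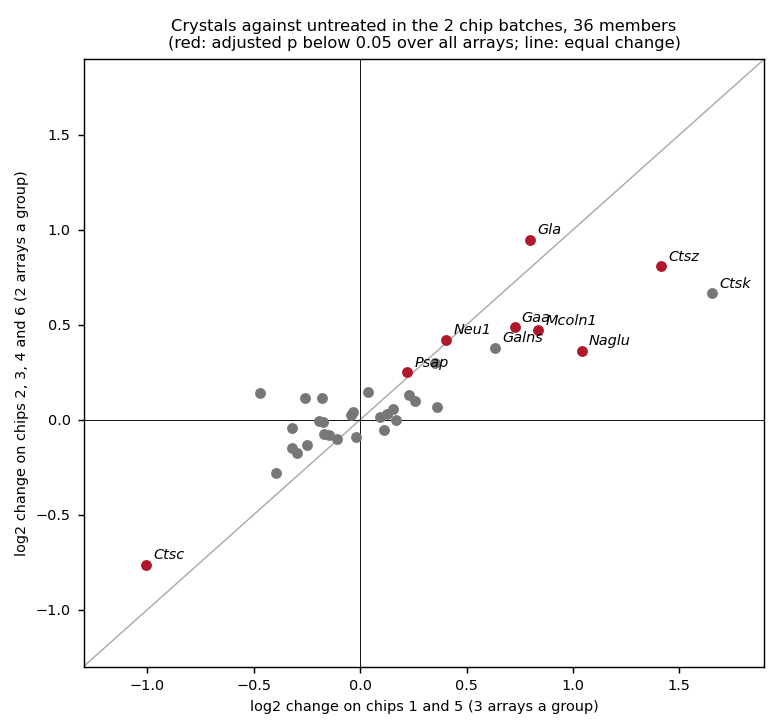
Change with crystals against untreated (log2) on chips 1 and 5 (horizontal axis, 3 arrays a group) and on chips 2, 3, 4 and 6 (vertical axis, 2 arrays a group) for the 36 members; red points were called over all arrays and the line marks equal change. All 8 red points have the same sign in both batches, from -1.01 and -0.76 for Ctsc to 1.41 and 0.81 for Ctsz. They were chosen by their call over these same arrays, so the shared sign is not a separate test.

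Other lysosomal genes, in lists chosen with results of these data known, are given for the crystal comparison. Their counts stand against 17.5% of all genes called, 8.49% higher and 8.97% lower. Of 18 further enzymes and activators, 3 rose and 2 fell. They included Hyal1, a hyaluronidase, at 2.52 ± 0.58, the dipeptidyl peptidase Dpp7 at 0.80 ± 0.15 and the acid nuclease Dnase2a at 0.63 ± 0.12 (limma, adjusted p = 0.00493, 0.000877 and 0.00133). The cholesteryl ester hydrolase Lipa changed by 0.32 ± 0.24 (adjusted p = 0.412). Of 17 further membrane proteins and transporters, 6 rose and 2 fell, led by the chloride exchanger Clcn7 at 1.32 ± 0.24, the peptide transporter Slc15a3 at 1.14 ± 0.19 and the nucleoside transporter Slc29a3 at 1.07 ± 0.12. The cholesterol exporter Npc1 changed by 0.36 ± 0.16 (adjusted p = 0.128, and 0.0399 with the set block).

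Of 15 genes of sorting to the lysosome, 4 rose and 2 fell, against the same 8.49% higher and 8.97% lower over all genes. The largest changes were those of the adaptors Gga2, at 1.17 ± 0.18, and Ap1b1, at -1.02 ± 0.23, and of Cln8, at 1.00 ± 0.26. Of 16 genes of transcription and nutrient signalling at the lysosome, 5 rose and 1 fell. Rragd, a small GTPase that acts in recruiting mTORC1 to the lysosome, rose by 2.16 ± 0.19, with 5.76 as its untreated mean and 7.92 as its mean with crystals. Fnip2 and Fnip1, partners of folliculin, rose by 1.43 ± 0.21 and 0.89 ± 0.18. The transcription factor Tfeb changed by 0.14 ± 0.27 (limma, adjusted p = 0.801). Its probe is dim, with means of 4.59 untreated and 4.73 with crystals, and the offset shrinks changes of dim probes. The lack of a call therefore does not show that Tfeb was unchanged. Of 4 cathepsin inhibitors tested, Cstb, or stefin B, rose by 0.38 ± 0.10. Cyclodextrin alone called 1 gene over these 5 lists, the calcium channel Tpcn2, at -0.80 (adjusted p = 0.0267). In that comparison 1.13% of all genes were called. Median changes with crystals were 0.07, 0.35, 0.16, -0.04 and 0.17 in the order of the lists, against -0.02 over all genes.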

How the data were processed

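RNA of 4 groups of 5 samples was hybridised to 20 Illumina mouse arrays. Per the file headers, the deposited signal file holds an average bead intensity on a linear scale for each probe and array. It also holds a deposited detection p-value per probe and array, per the file headers. The authors' deposited value table is in log2 units, and its direction, scale and centring were found by recomputation: quantile-normalised log2 signal with each set of 4 arrays brought to one mean per probe (SD of the difference 6.96e-05, column medians 6.71 to 6.72). Partek is the software listed per the submitters' processing notes; its version is not given there.

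All results rest on the bead signals, processed with limma 3.58.1 (R 4.3.3). Its function neqc was applied, which corrects background with controls inferred from the detection p, adds an offset of 16, quantile normalises and takes log2. The offset shrinks changes of dim probes. A probe entered if its detection p was below 0.05 on 5 or more arrays (18348 probes). Of all probes, 34885 had 1 symbol, 18 several and 10378 none, and the latter kinds were not used. The brightest of a gene's probes stood for it, giving 10018 genes from 15671 probes. A model of group means (lmFit, contrasts.fit, eBayes) was fitted for 6 comparisons, two-sided, with Benjamini-Hochberg adjustment over all genes. The number of arrays limits the precision.

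The members, the further lists and the tests were chosen with earlier results of these data known. Members called in a comparison, with or without the set block, are named with values by array or by group, along with Gpnmb, Ctsd, Ctsb, Lamp1, Mcoln1, Smpd1 and Grn. Of each further list, up to 3 called genes of largest change are given, with Tfeb, Npc1 and Lipa. Marker lists covered macrophages, osteoclasts, neutrophils, dendritic cells, B cells, T and NK cells, stromal cells, mast cells and erythroid cells. Some list genes are not analysed here. Replicate numbers in the labels did not pair the arrays: same-numbered arrays correlated at -0.56 to 0.65, and 0 of 20 correlated best with their own number. The model was also run on simulated data, whose outcome is not reported here. The simulated noise was independent between arrays, without chip, set or batch structure, so it cannot speak to the choice of block. Alternatives were other normalizations, filters, probe choices, blocks by chip, set or replicate number, each chip batch alone, and leaving out arrays.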

Additional observations from a re-analysis of the deposited data

Results flagged for a closer look

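In 17 members with 5 arrays in each of 4 groups, 68 groups were searched for an array lying far from the others by Dixon's criterion, which flags about 1 in 20 groups by chance, and 4 such arrays were found. Naglu lay at 9.02 on CD-cc 5, against 10.0 to 10.2 on the other arrays of that group. Neu1 lay at 10.9 on CD-cc 2, against 11.1 to 11.2. Galns lay at 8.16 on cc 4, against 7.50 to 7.69, and at 7.85 on CD 5, against 6.96 to 7.21. No treatment effect of a member differed between the chip batches by a called interaction. From 0 to 128 of all 10018 genes were called per comparison, so the lack of a call does not show equal effects.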

How the results depend on the processing

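Counts of called members are given in the order crystals against untreated, cyclodextrin against untreated, both against crystals, both against cyclodextrin, both against untreated and the interaction, and were 8, 0, 0, 9, 9 and 0. With the set as a block they were 12, 1, 0, 14, 13 and 0, and 12, 1, 0, 17, 16 and 0 with con 4 and con 5 exchanged. Scale normalization gave 2, 0, 0, 1, 2 and 0, with 423 genes higher and 230 lower for crystals in place of 851 and 899. The authors' table gave 16, 3, 1, 21, 22 and 0, whose set means had been removed, which shrinks the spread, and 13, 1, 0, 17, 17 and 0 with the set block. The chip as a fixed block gave 8, 0, 0, 3, 5 and 0, and the chip batch as a block 11, 1, 0, 12, 13 and 0. Chips 2, 3, 4 and 6 alone, with fewer arrays, gave 2, 1, 0, 3, 2 and 0. With only the groups of the contrast, the counts for both against cyclodextrin and both against untreated were 5 and 5. The replicate number as a block gave 7, 0, 0, 7, 6 and 0; same-numbered arrays share only a number. Leaving out 1 array gave 5 to 9, 0 to 0, 0 to 0, 3 to 10, 4 to 9 and 0 to 0. Counts moved by over 1.5 times without cc 1 for crystals against untreated (5), without CD-cc 1 (5), CD-cc 4 (4), CD 2 (3), CD 3 (4) or CD 4 (4) for both against cyclodextrin, and without CD-cc 2, 3, 4 or 5 or con 1 or 4 (5 each) or con 5 (4) for both against untreated. Without the 3 arrays of lowest signal the counts were 7, 0, 0, 8, 6 and 0. Gla kept its direction and call in the 3 comparisons that call it under all 40 alternatives. For the mean of a gene's probes, chosen after seeing the data like the chip batch block, the exchange and the blocked authors' table, Gpnmb was called with crystals. It was then also called higher in both against cyclodextrin and both against untreated. Signs turned with crystals for Smpd1, uncalled, to 0.0438 (scale), 0.115 (chips 2, 3, 4 and 6 alone) and 0.085 (mean of probes), and for Grn, uncalled, to 0.0373 (scale), 0.0444 (chip as a fixed block), 0.00315 (chip as a random block) and 0.0243 (chips 2, 3, 4 and 6 alone). Leaving out 1 array gave Grn -0.0804 to 0.0205, above 0 without cc 2, cc 5, con 2, con 3 or con 4. Psap, both against cyclodextrin, turned to -0.0614 with scale normalization. The causes of these shifts were not tested. Dim probes such as that of Gla have changes shrunk by the offset.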

Other observations

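On chips 1 and 5, which held 3 of the 5 sets, the untreated arrays con 4 and con 5 did not follow their sets. Deviations from the group mean on con 4, placed in set 3 by the authors' table, correlated at 0.48 to 0.57 with the other arrays of set 2 and at -0.25 to 0.11 with those of its own set. Those on con 5, placed in set 2, correlated at -0.18 to -0.14 with its own set, at -0.004 to 0.095 with set 3 and at 0.091 to 0.195 with set 1, so con 5 did not follow set 3 either, into which an alternative exchanged it. The correlations are across genes, which are not independent replicates, and both arrays are untreated, so no group mean changes. The brightest probe of Ctsa lay at 10.36, 10.37, 10.45 and 10.53 on the arrays of set 1. It lay at 12.47, 12.68 and 13.08 on the treated arrays of set 2 and at 11.09 on con 5. On the treated arrays of set 3 it lay at 11.01, 11.41 and 11.99, and at 12.10 on con 4.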
